A study of Mus musculus with 30 samples.

Results

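The chromatin of 36 nuclear receptor genes was examined in the ventral hippocampus of mice that had or had not been restrained. The genes encode the receptors for retinoids, thyroid hormone, sex steroids, fatty acids, vitamin D, oxysterols, bile acids and xenobiotics together with their orphan relatives, while the corticosteroid receptors and the Nr4a, ROR and REV-ERB groups were not included. Their regions were chosen by position alone, as every row of the deposited peak table that overlapped the RefSeq body of one of the genes extended by 10 kb on both sides (GRCm38). This gave 431 of the 257149 peaks in the table, at 35 of the 36 genes. Hnf4g had no peak, Esr2 had 1, and 3 peaks were shared by the neighbours Nr5a1 and Nr6a1.

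The assay was bulk ATAC-seq, in which a transposase cuts open chromatin and the DNA sequenced from it is counted in peaks, on nuclei of 1 ventral hippocampus per library. The study compared mice with a history of daily restraint over 10 consecutive days (restraint in a tube, here called chronic restraint) with mice that were only handled over that time, with tissue collected either from undisturbed home-cage mice (0 min) or once 45 min had passed since a final restraint began, the same restraint for both histories. The groups held 8 handled mice at 0 min (4 females and 4 males), 7 handled mice at 45 min (3 females and 4 males), 8 chronically restrained mice at 0 min (4 females and 4 males) and 7 chronically restrained mice at 45 min (4 females and 3 males), spread over 4 labelled batches. Strain and age were not given in the sources used here. The 30 libraries held between 26104576 and 55294838 counts in peaks. Replicates of a group correlated at Pearson r between 0.916 and 0.974 on log2 values across peaks. One library stood apart, that of animal 45 (a handled female at 0 min), with 39.9% of its counts in peaks at gene starts (or, for genes with no listed start, gene ends) against at most 37.3% in any of the others. Each of the 5 excitatory neuron markers used as a check of the tissue (Slc17a7, Neurod6, Camk2a, Neurod2 and Prox1) had a peak at such a position, as did all 5 inhibitory neuron, all 5 striatum and all 4 oligodendrocyte markers, against 2 of 5 markers of tissues outside the brain. The median was 5.94 CPM per kb over the excitatory markers, 4.02 over those of striatum and 3.38 over those of inhibitory neurons, so the presence of a peak did not tell these sources apart. In bulk tissue, fewer open cells of a type and less open chromatin per cell cannot be told apart.

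Nuclear receptors are transcription factors that read small lipophilic molecules: a zinc finger domain binds DNA and a separate domain binds the ligand and exchanges corepressors for coactivators. Many members of the family bind as heterodimers with a retinoid X receptor (RXR) to repeats of a short half-site, and the spacing and orientation of the half-sites select the partner. In the hippocampus, retinoic acid and thyroid hormone signalling are known for roles in synaptic plasticity and in adult neurogenesis, for which the tailless receptor Nr2e1 maintains the neural stem cells.

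The promoter sequences below show which kinds of start site lay in open chromatin and where half-sites were written in them. RefSeq start sites were listed for 33 of the 36 genes, in 53 windows of 300 bases from 250 bases before to 50 bases after the start (GRCm38.p6). Bases in capitals match 1 of 4 half-site spellings (the consensus AGGTCA, with its variants GGGTCA and, with TT in the middle, AGTTCA and also GGTTCA) on either strand. Of the windows printed, those of Rxra promoter 1, Nr2c2 and Thrb promoter 1 lay in peaks that are described below. Rxra promoter 2 lay in a smaller peak inside the gene, and Nr1h4 lay in no peak. Rarb held the only direct or inverted repeat of half-sites with a spacer of 0 to 5 bases, the range searched.

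Rarb, chr14:16575427-16575726, minus strand: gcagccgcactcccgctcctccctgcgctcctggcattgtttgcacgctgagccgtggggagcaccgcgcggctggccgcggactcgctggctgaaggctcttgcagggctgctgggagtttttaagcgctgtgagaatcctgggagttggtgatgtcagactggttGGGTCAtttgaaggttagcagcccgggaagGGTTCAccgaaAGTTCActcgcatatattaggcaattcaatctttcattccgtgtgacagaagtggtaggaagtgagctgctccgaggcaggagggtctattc

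Rxra promoter 1, chr2:27676951-27677250, plus strand: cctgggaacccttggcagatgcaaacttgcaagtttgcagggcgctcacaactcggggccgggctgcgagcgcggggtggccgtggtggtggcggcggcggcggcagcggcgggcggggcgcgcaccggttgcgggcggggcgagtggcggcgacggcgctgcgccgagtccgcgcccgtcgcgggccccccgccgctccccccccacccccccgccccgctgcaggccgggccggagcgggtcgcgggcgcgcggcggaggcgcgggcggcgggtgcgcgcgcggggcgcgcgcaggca

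Rxra promoter 2, chr2:27709042-27709341, plus strand: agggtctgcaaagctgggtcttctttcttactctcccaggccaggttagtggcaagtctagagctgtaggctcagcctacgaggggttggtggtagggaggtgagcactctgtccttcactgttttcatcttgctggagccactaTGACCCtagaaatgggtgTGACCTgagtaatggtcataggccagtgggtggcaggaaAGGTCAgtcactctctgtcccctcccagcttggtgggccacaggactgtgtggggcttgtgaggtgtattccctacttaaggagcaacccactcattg

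Nr2c2, chr6:92092183-92092482, plus strand: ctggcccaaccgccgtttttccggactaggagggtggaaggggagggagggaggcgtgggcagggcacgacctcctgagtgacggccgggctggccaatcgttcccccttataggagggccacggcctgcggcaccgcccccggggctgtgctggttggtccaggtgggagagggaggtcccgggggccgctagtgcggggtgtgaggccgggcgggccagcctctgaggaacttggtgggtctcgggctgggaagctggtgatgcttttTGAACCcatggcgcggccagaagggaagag

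Thrb promoter 1, chr14:17660710-17661009, plus strand: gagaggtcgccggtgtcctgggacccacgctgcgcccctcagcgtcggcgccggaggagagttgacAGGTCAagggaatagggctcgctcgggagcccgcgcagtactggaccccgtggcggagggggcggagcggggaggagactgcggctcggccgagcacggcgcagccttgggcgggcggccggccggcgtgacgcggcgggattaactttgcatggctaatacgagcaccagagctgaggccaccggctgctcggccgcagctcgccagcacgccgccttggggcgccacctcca

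Nr1h4, chr10:89506609-89506908, minus strand: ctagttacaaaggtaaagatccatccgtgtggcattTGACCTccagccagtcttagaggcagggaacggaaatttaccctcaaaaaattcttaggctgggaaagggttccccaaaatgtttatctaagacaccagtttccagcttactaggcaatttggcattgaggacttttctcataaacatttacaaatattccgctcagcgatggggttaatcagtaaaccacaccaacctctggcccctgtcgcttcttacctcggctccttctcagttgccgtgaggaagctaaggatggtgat

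In the Rarb window, GGTTCA and AGTTCA stood as a direct repeat with a spacer of 5 bases, the arrangement known as a retinoic acid response element and described in textbooks for this gene. It was the only 1 of the 53 windows with such a repeat (1.89%), against 32 of all 32851 promoter windows (0.0974%). A single half-site on either strand was found in 23 of the 53 windows (43.4%), close to the 43.7% of all windows. The GC box GGGCGG, searched on both strands, was in 22 windows (41.5%, against 35.7% of all). A match describes the letters only and does not show a bound site.

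Of the 53 windows, 36 overlapped a peak (67.9%, against 56.4% of all windows). CpG dinucleotides separated open from closed windows among these genes as they did in all genes: the median was 18 CpGs in windows with a peak and 4 in those without, against 18 and 3 over all windows. Rxra promoter 1 held 55 CpGs, no half-site and 4 GC boxes. Rxra promoter 2, an internal start site with 1 CpG and 3 half-sites, lay in a peak of 1057 bp with 2.46 CPM (counts scaled to a common library total). The 7106 bp peak over promoter 1 held 25.1 CPM. The 2 values are not scaled to peak width, so much of the gap between them goes with the width.

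A peak that overlapped 1 kb on either side of a listed start, or of either gene end where no start was listed, was found for 28 of the 36 receptor genes, as it was for 73.8% of 20687 genes. For 26 of the 28 the start was listed and the peak is called a promoter peak; Thra (thyroid hormone receptor alpha) and Nr5a1 (SF-1, the factor of steroid-producing glands) had no listed start, so no promoter level is given for them. The 8 without one were Esr2 (estrogen receptor beta), Nr1h4 (the bile acid receptor FXR), Nr1i2 (the xenobiotic receptor PXR), Nr2e3 (a photoreceptor factor), Nr5a2 (LRH-1, a liver and gonad factor), Hnf4a and Hnf4g (hepatocyte nuclear factors) and Nr0b2 (SHP, a corepressor without a DNA-binding domain known from the liver). Per kb of peak, the promoter of Nr2c2 (the testicular receptor TR4) was the most accessible of the family at 13.9 CPM per kb ± 1.73 (SD over the 30 libraries), which lay at percentile 97.2 of all genes. Esrra followed at 8.05 ± 0.481 and Rxrb at 8.02 ± 0.415, which did not differ beyond their spread. The lowest levels were those of Nr1i3 (the xenobiotic receptor CAR) at 2.24 ± 0.370, Esr1 (estrogen receptor alpha) at 2.602 ± 0.642 and Nr2f2 (COUP-TF II) at 2.62 ± 0.498, neighbours in this order that overlapped within 1 SD. The gene-end peak of Nr5a1 held 2.29 ± 0.341. The median over all genes with a start or gene-end peak was 5.76 CPM per kb.

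Some of these peaks covered more than the receptor's own start. The Rxrb peak spanned 22213 bp and also covered Col11a2, H2-Ke6, Ring1 and Slc39a7, and the Esrra peak spanned 22683 bp with Catsperz, Kcnk4, Prdx5 and Trmt112. The peak of Nr1h2 (the oxysterol receptor LXR beta) covered part of Pold1. Thra had a wide peak at each gene end: one of 22157 bp with 7.71 CPM per kb at the end with the lower coordinate, and one of 18936 bp with 9.19 CPM per kb at the end that overlaps Nr1d1. In all, 85 of the 431 peaks overlapped another protein coding gene, so their counts cannot be given to the receptor gene alone.

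**Figure D1:**
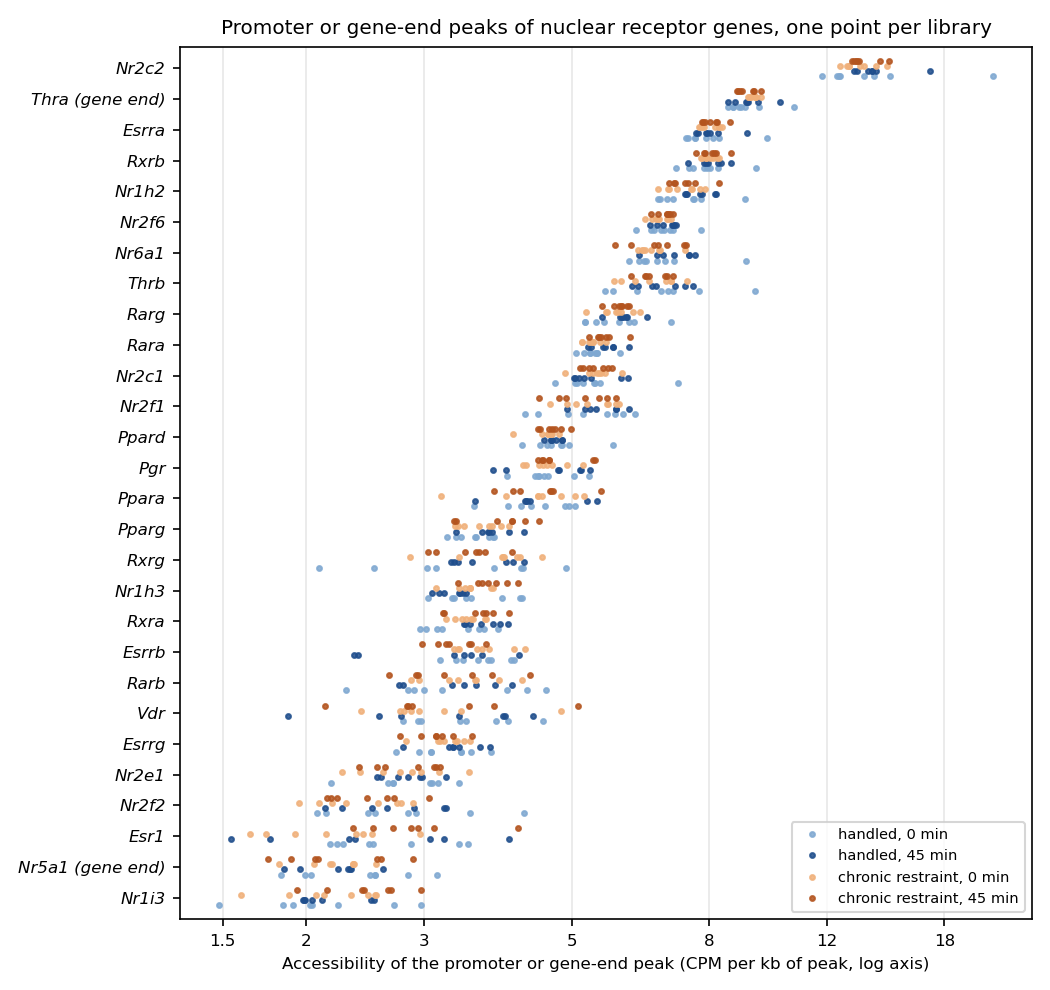
Accessibility of the promoter peak of 26 nuclear receptor genes, and of the strongest gene-end peak of Thra and Nr5a1 (marked as such), in CPM per kb of peak (log axis), one point per library, coloured by group and offset within a row. Nr2c2 has the highest mean (13.9) and Nr1i3 the lowest (2.24), and the 4 groups overlap at every gene; the handled 0 min point to the right of the others at several of the upper genes is animal 45.

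Within classes the promoter levels were uneven. Among the RXRs, the shared partners of the family, Rxrb stood at 8.02 CPM per kb, Rxrg at 3.64 and Rxra at 3.53, the last 2 within 1 SD of each other. Among the retinoic acid receptors Rarg (5.87) and Rara (5.48) lay above Rarb (3.40). The Rara level was that of the wide peak chr11:98958495-98977124, which covers only the last of its 4 listed starts. The Rarg level was that of chr15:102240361-102248255, which covers only start 2 of its 2 listed starts. Thrb stood at 6.74 among the thyroid hormone receptors, and the estrogen-related receptors ran from 8.05 at Esrra to 3.25 at Esrrg, a gene with 4 listed starts. Nr2f6 (6.85) and Nr2f1 (5.34) exceeded Nr2f2 (2.62) in the COUP-TF group, whose members are known for patterning the developing cortex. The Nr2f6 level was that of a wide peak, chr8:71362196-71386583, which reaches well beyond the start. The Nr2f2 level was that of a peak beside its start and not over it.

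The genes differed widely in how many peaks their windows held. Ppard (PPAR delta, a fatty acid receptor) had 39 peaks in its window, Rxra 37, Thrb 36, Rarb 29 and Nr2c2 27. Of the 431 peaks, 41 lay at a start or gene end as defined above, 243 lay in a gene body and 147 in the flanks. Peaks at starts or gene ends were wider (median 2085 bp) than those in gene bodies (568 bp) and flanks (663 bp). Summed over all peaks of a class, the mean level was highest for the thyroid hormone receptors, at 6.61 CPM per kb. The estrogen-related receptors followed at 6.003, and the PPARs had the lowest level (3.61). Much of the sum in the leading classes came from the wide peaks described above, at the gene ends of Thra and at Esrra. Because the Esrra peak covers other genes and a Thra peak overlaps Nr1d1, this order is not one of receptor genes alone.

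The effect of the final restraint was tested first, as the mean over both histories of the difference between 45 min and 0 min. No receptor peak and no gene total (the counts of all peaks within 10 kb of a gene, summed) passed an adjusted p under 0.05 in edgeR's quasi-likelihood test, in which 299 of all 257143 tested peaks did (0.116%), 188 of them higher at 45 min (0.0731%), and 207 of 17633 gene totals (1.17%). At an unadjusted p under 0.05 there were 5 of the 35 gene totals, against 12.6% of all. An unadjusted p under 0.05 was reached by 40 of the 431 peaks (9.28%, against 7.17% of all peaks), of which 31 were higher and 9 lower at 45 min. The median log2 difference was 0.0098 over the receptor peaks and -0.0025 over all peaks, and 240 of 431 differences were positive (55.7%, against 49% of all peaks). The 95% intervals of all 35 gene totals lay between -0.196 and 0.189 on the log2 scale, so larger acute differences in the summed signal lay outside the interval of each of the 35 genes.

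Of the receptor peaks, the smallest acute p belonged to Rxra, the most widely used heterodimer partner. The peak, chr2:27753693-27761629, was 7937 bp wide and lay in the last part of the gene body. In handled mice it held between 32.5 and 36.3 CPM (median 33.8) at 0 min and between 35.5 and 42.4 (median 36.9) at 45 min. After chronic restraint it held between 31.1 and 36.9 CPM (median 34.3) at 0 min and between 36.6 and 42.5 (median 37.9) at 45 min. In handled mice 2 of the 8 libraries at 0 min exceeded the lowest one at 45 min, and in chronically restrained mice 1 of 8 did, so the ranges overlapped at their edges. The log2 difference was 0.15 ± 0.037 (SE), with an adjusted p of 0.0563 in edgeR. It was positive in each of the 4 batches (0.18, 0.16, 0.14 and 0.11). Acute values by batch are plain differences of group means, here and below, without adjustment for sex. At 45 min batch 4 held only animal 71 (a handled male) and animal 23 (a chronically restrained female). Without animal 45 the log2 difference was also 0.15 and the adjusted p was 0.00686, in a fit that called 681 of all peaks in place of 299. With each batch left out in turn it was 0.14 to 0.16, with an adjusted p from 0.0232 (without batch 4) to 0.676 (without batch 2).

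**Figure D2:**
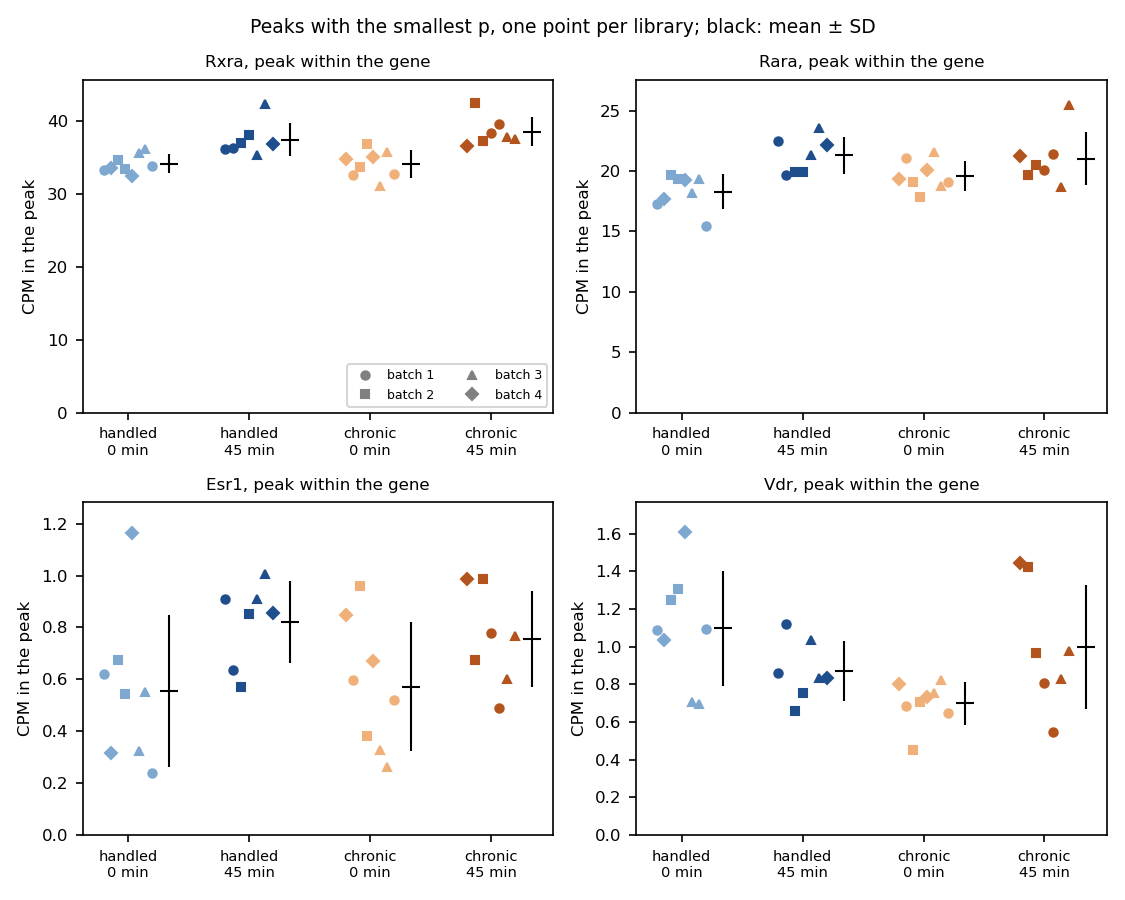
CPM in 4 peaks of Rxra, Rara, Esr1 and Vdr, one point per library, with the batch as the symbol and the mean ± SD of each group in black; each axis starts at 0. The Rxra and Rara points at 45 min sit mostly above those at 0 min with overlap, and the Esr1 and Vdr peaks hold about 1 CPM or less in most libraries with a wide spread.

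The other Rxra peaks pointed the same way. Of 37 peaks, 34 had a positive acute log2 difference, with a median of 0.12 and a range of -0.032 to 0.23. All 15 Rxra peaks with an unadjusted p under 0.05 were positive, so this 1 gene held 15 of the 31 positive ones of the family. The count of positive differences was 33 of 37 in handled mice (median 0.10, with 47.7% of all peaks positive there) and 34 of 37 after chronic restraint (median 0.087, with 50.3%), and 30 were positive in both. By batch it was 34, 29, 27 and 26 of 37, it was 32 in females and 32 in males, and it was 33 without animal 45. Among the 8624 genes with at least 10 peaks, 148 (1.72%) had over 90% of their peaks positive, and Rxra, which was singled out after its values were seen, was among these. Peaks of 1 gene share their libraries and are not replicates of the condition.

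The promoter peak of Rxra shared the direction with a smaller difference. It held 21.0 to 27.5 CPM (median 23.7) in handled mice at 0 min and 24.5 to 28.5 (median 26.0) at 45 min. The chronically restrained groups held 23.01 to 26.4 CPM (median 24.8) at 0 min and 22.8 to 28.6 (median 26.1) at 45 min, so the groups overlapped. The log2 difference was 0.082 ± 0.041 (adjusted p = 0.685 in edgeR). The peak around promoter 2, whose sequence is printed above, differed by 0.18 ± 0.088 (adjusted p = 0.659). The widest Rxra peak, 13943 bp in the gene body, differed by 0.043 ± 0.033.

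Summed over the 37 peaks, Rxra held 139 to 196 CPM on the scale of the gene-total table (median 179) in handled mice at 0 min and 174.5 to 195.4 (median 189) at 45 min. The chronically restrained groups had totals of 162 to 195 (median 180.3) at 0 min and 177 to 209 (median 199.8) at 45 min. The value of 139 was that of animal 45, below the other 29 libraries. The log2 difference of the total was 0.093 ± 0.029 (adjusted p = 0.120 in edgeR), positive in 4 of 4 batches. Without animal 45 it was 0.079 with an adjusted p of 0.0372, and with each batch left out in turn the adjusted p ran from 0.0478 to 0.656.

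**Figure D3:**
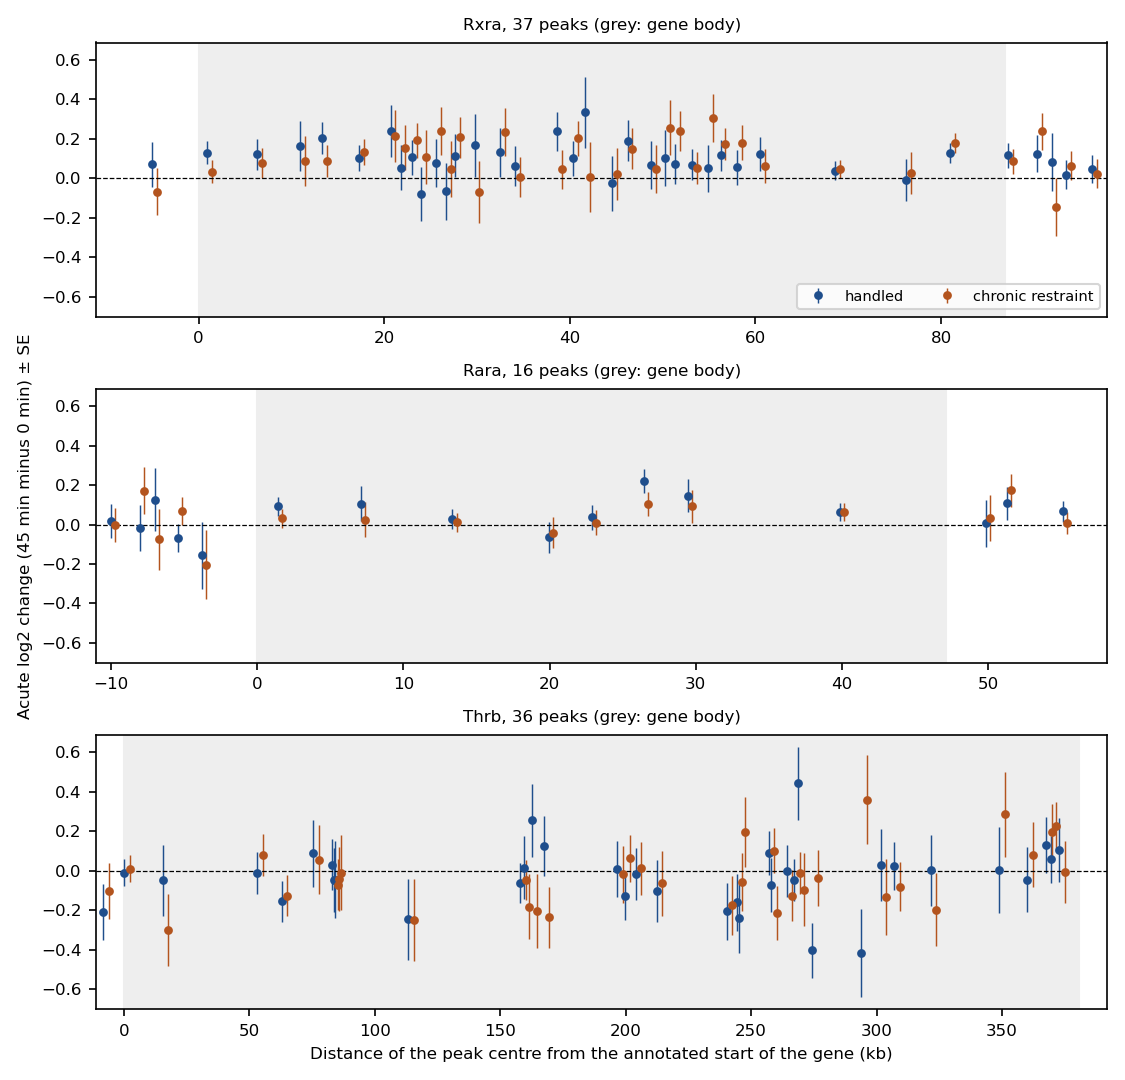
Acute log2 difference (45 min minus 0 min) ± SE of each peak along Rxra, Rara and Thrb, by distance of the peak centre from the annotated start in kb, in handled (blue) and chronically restrained mice (orange, drawn slightly to the right of blue). In Rxra 33 of 37 handled and 34 of 37 chronic points lie above 0; in Thrb 15 and 12 of 36 do.

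The retinoic acid receptors, which pair with the RXRs, differed from one another. The second smallest acute p of the family was that of a 3755 bp peak within Rara, chr11:98952549-98956303. It held 15.5 to 19.7 CPM (median 18.7) in handled mice at 0 min and 19.6 to 23.6 (median 21.3) at 45 min. With a history of restraint the peak held 17.9 to 21.5 CPM (median 19.2) at 0 min and 18.6 to 25.5 (median 20.5) at 45 min, ranges that overlapped over most of their length. The log2 difference was 0.16 ± 0.043 (adjusted p = 0.127 in edgeR), positive in 4 of 4 batches, and the adjusted p was 0.0199 without animal 45 and between 0.165 and 0.503 with each batch left out in turn. Acute differences were positive at 14 of 16 Rara peaks (median 0.032) and at 12 of 14 Rarg peaks (median 0.052), against 14 of 29 at Rarb (median -0.0010). By batch the counts were 13, 13, 8 and 8 of 16 at Rara and 13, 10, 8 and 12 of 14 at Rarg. Each of the 3 Rarb peaks with an unadjusted p under 0.05 was lower at 45 min, led by chr14:16497293-16497767 at -0.33 ± 0.11 (adjusted p = 0.367). At that peak animal 45 held the highest handled value at 0 min, 2.60 CPM. The Rarb promoter peak with the half-site repeat differed by 0.0018 ± 0.079.

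The Rara total was 188 to 215 CPM on the same scale (median 205.5) in handled mice at 0 min and 212.5 to 225 (median 214) at 45 min. After chronic restraint the total was 198 to 216 (median 210.1) at 0 min and 208 to 224 (median 216) at 45 min. Its log2 difference was 0.051 ± 0.014 with an adjusted p of 0.0539 in edgeR, the smallest of the 35 gene totals, positive in 4 of 4 batches and with an adjusted p of 0.0437 without animal 45 and of 0.0930 to 0.415 with each batch left out in turn. For Rarg the total differed by 0.043 ± 0.019 (adjusted p = 0.330) and for Rarb by -0.015 ± 0.024. Rarg's flanking peak with the smallest acute p, chr15:102230520-102232250, lay in Itgb7, an integrin gene, so that its 0.15 ± 0.060 cannot be assigned to Rarg.

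The thyroid hormone receptors, which hold their targets repressed without hormone, showed no acute difference that passed the test, and most Thrb peaks had a negative sign. Of 36 Thrb peaks 11 were positive (median -0.029), and fewer than 1 in 3 of the peaks were positive at 947 of 8624 genes (11%). The Thrb peak with the smallest acute p, chr14:17934408-17935070, held 1.29 to 2.23 CPM (median 1.75) in handled mice at 0 min and 0.982 to 1.67 (median 1.32) at 45 min. After chronic restraint it held 1.01 to 1.70 CPM (median 1.43) at 0 min and 1.13 to 1.68 (median 1.38) at 45 min. The value of 2.23 CPM was that of animal 45. The averaged log2 difference of the peak was -0.22 ± 0.099 (adjusted p = 0.622 in edgeR). The Thrb total differed by -0.024 ± 0.019 and the Thra total by 0.0036 ± 0.015.

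By class, acute differences were positive at 41 of 49 RXR peaks (median 0.093), 40 of 59 retinoic acid receptor peaks (median 0.036) and 14 of 42 thyroid hormone receptor peaks (median -0.029). No peak of these or of the other 7 classes was called. The RXR figure was that of Rxra: Rxrb had 4 peaks, all positive, Rxrg had 3 of 8 positive, and the median over the 3 RXR gene totals was 0.020. Summed over the class, the RXR peaks held 424 to 473 CPM in handled mice at 0 min and 449 to 487 at 45 min, and 443 to 480 and 450 to 496 in chronically restrained mice, so that all 4 groups overlapped. The thyroid hormone receptor peaks held 436 to 557 and 433 to 514 CPM in handled mice and 447 to 481 and 445 to 489 in chronically restrained mice, also overlapping. In the remaining classes the median acute difference lay between -0.014 (COUP-TF group) and 0.036 (NR5, NR6, HNF4 and SHP).

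**Figure D4:**
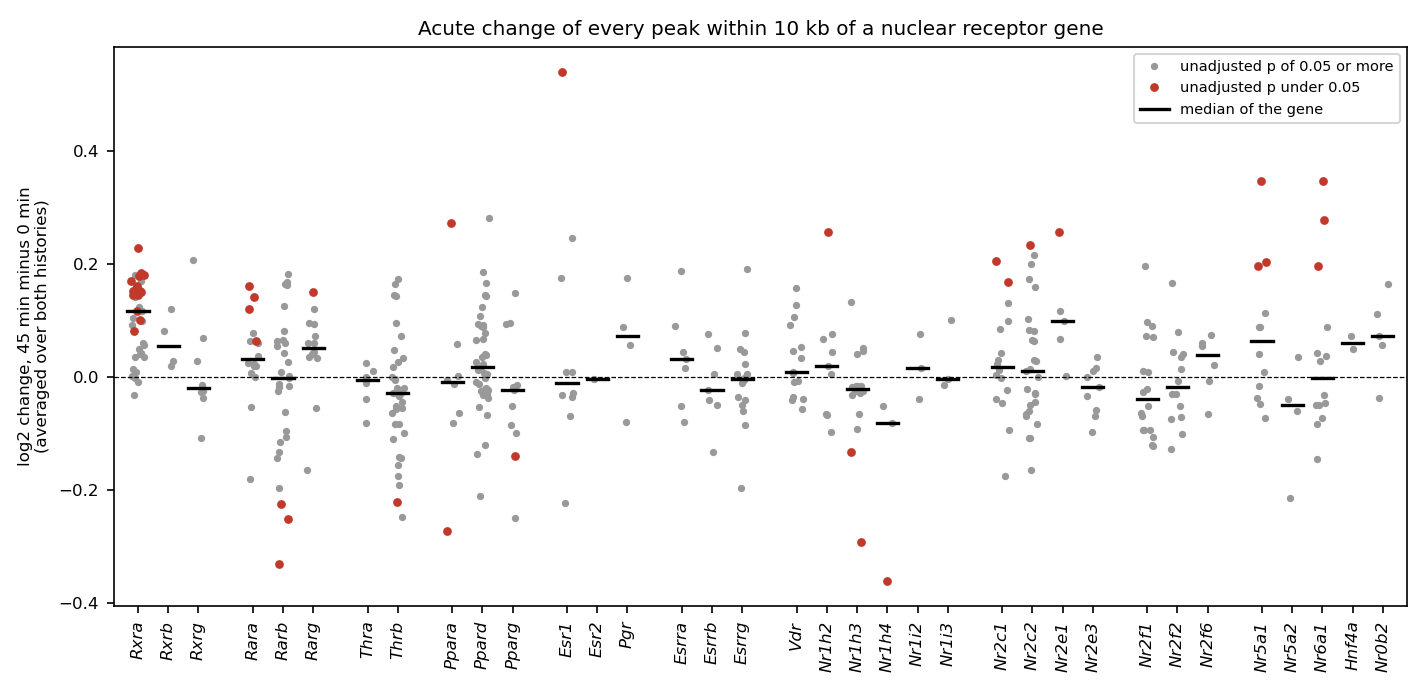
Acute log2 difference (45 min minus 0 min, averaged over both histories) of every peak within 10 kb of 35 nuclear receptor genes, grouped by class from the RXRs on the left; red points have an unadjusted p under 0.05 and black bars are medians of a gene. Rxra stands above 0 with 15 red points, while most other genes are centred near 0; none of the 431 points passed an adjusted p under 0.05.

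Among the sex steroid receptors, a 209 bp peak within Esr1, chr10:4944159-4944367, had the next smallest acute p and the largest difference among the 431 peaks. It held 0.239 to 1.16 CPM (median 0.547) in handled mice at 0 min and 0.570 to 1.01 (median 0.857) at 45 min. The chronically restrained groups held 0.261 to 0.959 CPM (median 0.559) at 0 min and 0.491 to 0.988 (median 0.767) at 45 min, and all 4 groups overlapped. The log2 difference was 0.54 ± 0.15 (adjusted p = 0.1995 in edgeR), positive in 4 of 4 batches. The highest value at 0 min was that of animal 45, without which the difference was 0.62 with an adjusted p of 0.0166. By batch the difference was 0.51, 0.29, 1.09 and 0.40, and without batch 3 it was 0.34 with an adjusted p of 0.633. Of all 10 Esr1 peaks 5 were positive, with a median of -0.0096. Pgr, the progesterone receptor and a classical estrogen target, had 4 peaks, of which the promoter peak differed by 0.057 ± 0.047. The single Esr2 peak, in its flank, differed by -0.0034 ± 0.10.

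The fatty acid and sterol receptors showed small differences of both signs. The 58 PPAR peaks had a median acute difference of 0.00013, with 29 positive, and the 2 smallest p of Ppara belonged to peaks of opposite sign (-0.27 ± 0.12 and 0.27 ± 0.12). The oxysterol receptors differed in sign at the level of the total: Nr1h2 differed by 0.053 ± 0.018 (adjusted p = 0.157 in edgeR) and Nr1h3 (LXR alpha) by -0.031 ± 0.014 (adjusted p = 0.311), and 4 of 16 Nr1h3 peaks were positive. Nr1h4, whose closed promoter is printed above, had 3 peaks, all lower at 45 min, led by chr10:89510609-89510921 at -0.36 ± 0.12 (adjusted p = 0.313). Vdr, Nr1i2 and Nr1i3 had totals that differed by at most 0.023 on the log2 scale in either direction.

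Of the orphan receptors, Nr2e1, the stem cell factor, had 5 peaks, all positive, the largest being 0.26 ± 0.12 (adjusted p = 0.631) at chr10:42572481-42572864. By batch 5, 2, 3 and 4 of these 5 peaks were positive. All 5 were positive in females alone (median 0.20), but only 2 in males alone (median -0.010). The promoter of Nr2c2, the most accessible one, held 35.9 to 64.8 CPM (median 39.9) in handled mice at 0 min and 40.1 to 52.2 (median 42.6) at 45 min. With a history of restraint the peak held 38.3 to 44.9 CPM (median 40.1) at 0 min and 39.8 to 45.2 (median 40.5) at 45 min, and its acute difference was 0.028 ± 0.051. The 3 peaks between Nr5a1 and Nr6a1 that both genes shared included chr2:38716177-38716430, a 254 bp peak with 0.35 ± 0.13 (adjusted p = 0.469), positive in 4 of 4 batches. Nr2f1, known as COUP-TF I, and Nr2f2 had totals of -0.034 ± 0.018 and -0.029 ± 0.022.

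Taken by history, the final restraint gave no called receptor peak in handled mice, where 0.0109% of all peaks were called, nor in chronically restrained mice, where 0.00272% were. At an unadjusted p under 0.05 the counts were 17 (3.94%, against 5.52% of all peaks) and 25 (5.80%, against 4.73%). The difference between the histories was tested as an interaction, in which 0% of all peaks were called and 9 receptor peaks had an unadjusted p under 0.05 (2.09%, against 3.03%). The wide Rxra peak named above gave 0.13 in handled and 0.18 in chronically restrained mice. The Rara peak gave 0.22 in handled and 0.10 in chronically restrained mice.

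The history of restraint itself was then compared. No receptor peak was called at 0 min, at 45 min or over both times, and 0% of all peaks were called in each of these comparisons. At an unadjusted p under 0.05 there were 18 at 0 min (4.18%, against 4.59% of all peaks) and 17 at 45 min (3.94%, against 3.78%). Over both times, 23 of 431 had an unadjusted p under 0.05 (5.34%, against 5.44% of all peaks), 9 higher and 14 lower after chronic restraint, with no such split given over all peaks. The median was -0.0089 over receptor peaks and -0.0048 over all peaks. The thyroid hormone receptors had 10 of 42 peaks positive (median -0.047), and the RXRs 34 of 49 (median 0.037), where 48% of all peaks were positive. For 33 of the 35 genes the interval of the total lay within 0.2 of 0; the exceptions were Esr2 and Nr1i2, which have 1 and 3 peaks.

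Vdr, the vitamin D receptor, had the smallest p of the family for chronic restraint at 0 min, at a 249 bp peak within the gene, chr15:97890105-97890353. It held 0.695 to 1.61 CPM (median 1.09) in handled mice at 0 min and 0.454 to 0.821 (median 0.720) in chronically restrained mice at 0 min. At 45 min it held 0.661 to 1.12 CPM (median 0.835) in handled and 0.548 to 1.45 (median 0.965) in chronically restrained mice. At 0 min the groups overlapped only at the low end of the handled range, and at 45 min they overlapped throughout. The highest handled value at 0 min, 1.61 CPM, was that of animal 45. The log2 difference at 0 min was -0.65 ± 0.17, with an unadjusted p of 0.00027 and an adjusted p of 0.997 in edgeR. The acute difference of this peak was 0.55 ± 0.18 in chronically restrained mice and the interaction was 0.85 ± 0.25, neither called.

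Nr2f1 and Rarb held the other peaks among the 3 smallest p at 0 min, and Nr2f1 and Esrrg those among the 3 smallest over both times, all with lower values after chronic restraint. A 193 bp peak within Rarb, chr14:16761580-16761772, held 0.288 to 0.867 CPM (median 0.584) in handled and 0.261 to 0.578 (median 0.448) in chronically restrained mice at 0 min, a log2 difference of -0.53 ± 0.20 (adjusted p = 0.997 in edgeR). The Nr2f1 flank peak chr13:78207854-78208069 held 0.649 to 1.31 CPM (median 0.825) in handled and 0.464 to 0.994 (median 0.563) in chronically restrained mice at 0 min. Over both times it differed by -0.36 ± 0.12 (adjusted p = 0.897 in edgeR), negative in 4 of 4 batches. A second Nr2f1 flank peak, chr13:78200082-78200895, differed by -0.18 ± 0.063, with a positive difference (0.047) in batch 3. The Esrrg flank peak chr1:188221215-188221713 differed by -0.25 ± 0.087, negative in 4 of 4 batches. At each of these Rarb, Nr2f1 and Esrrg peaks animal 45 held the highest handled value at 0 min. In the order named, it held 0.867, 1.31, 7.48 and 3.02 CPM. In the opposite direction, the Nr1h3 promoter peak held 9.46 to 10.7 CPM (median 10.4) in handled and 10.4 to 12.7 (median 11.5) in chronically restrained mice at 45 min, a log2 difference of 0.19 ± 0.069 (adjusted p = 1.00 in edgeR).

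Females and males were compared over all groups. No receptor peak was called, against 0.035% of all peaks, and 23 of 431 had an unadjusted p under 0.05 (5.34%, against 5.37%). The difference was positive, meaning higher in females, at 252 of 431 (58.5%, against 51.9% of all peaks). None of the 36 genes lies on the X chromosome. The smallest p was at the promoter of Ppara (PPAR alpha, which drives fatty acid oxidation). It held 7.97 to 11.5 CPM (median 10.0) in 15 females and 6.64 to 10.5 (median 8.92) in 15 males, with wide overlap. The log2 difference, female minus male, was 0.17 ± 0.054 (adjusted p = 0.774 in edgeR), positive in 4 of 4 batches. The Esr2 total, which rests on 1 peak with a mean of 48.3 counts, differed by -0.26 ± 0.098.

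The acute difference was also compared between the sexes. No receptor peak was called, against 0.000389% of all peaks, and 10 of 431 had an unadjusted p under 0.05 (2.32%, against 3.72%). The smallest p was at chr2:27718189-27718518 in Rxra. In females it held 0.746 to 1.17 CPM (median 0.929) at 0 min and 0.505 to 1.27 (median 0.752) at 45 min. In males it held 0.445 to 0.878 CPM (median 0.798) at 0 min and 0.759 to 1.42 (median 1.09) at 45 min. The difference of the acute changes, female minus male, was -0.70 ± 0.24 (adjusted p = 1.00 in edgeR), at a peak with about 1 CPM.

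**Figure D5:**
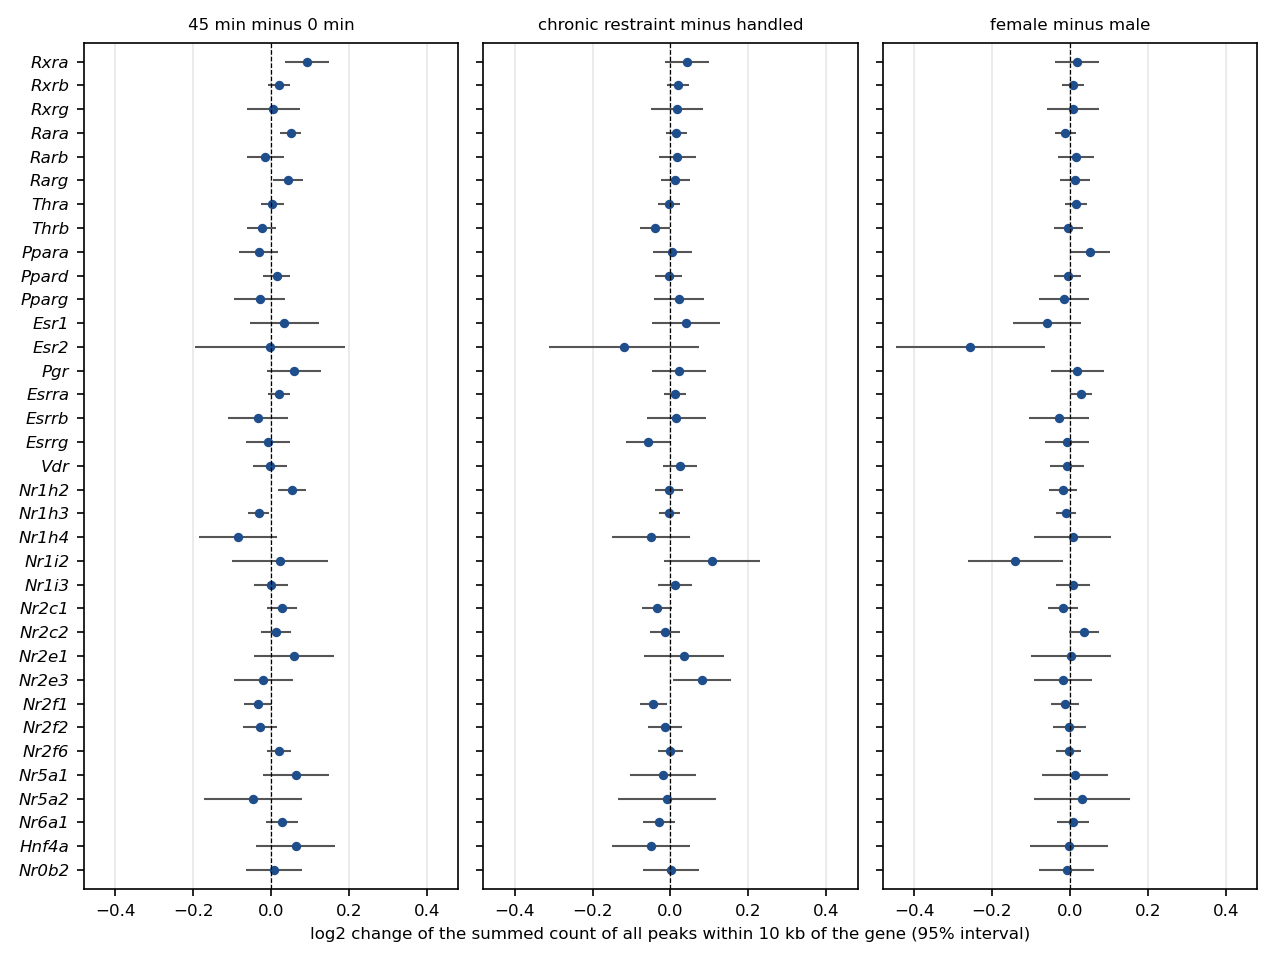
Log2 difference of the summed count of all peaks within 10 kb of each of 35 nuclear receptor genes, with 95% intervals, for the acute, chronic and sex comparisons. In the acute panel every interval lies between -0.196 and 0.189, and Rxra and Rara lie above 0 without passing an adjusted p under 0.05; genes with few peaks, such as Esr2 and Nr1i2, have the widest intervals.

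Genes that make, move or break down the ligands were examined by the same rule. The retinoid handling list (14 genes, 119 peaks at 12 of them) had no called acute peak, with 68.9% positive (against 49% of all peaks) and a median of 0.019. Its smallest p was at Stra6, the retinol transporter (0.19 ± 0.050, adjusted p = 0.128 in edgeR). The thyroid hormone handling list (8 genes, 94 peaks at 7 of them) had 1 called acute peak, where 0.116% of all peaks were called. It was at Dio3, the deiodinase that inactivates thyroid hormone. This peak, chr12:110269597-110271044, had a mean of 3.503 CPM ± 0.634 (SD, n = 8) in the handled 0 min group, and 45 min after restraint began the handled mean was 4.57 ± 0.403 (n = 7). After chronic restraint it held 3.72 ± 0.369 (n = 8) at 0 min and 4.40 ± 0.601 (n = 7) at 45 min. Averaged over both histories it rose by 0.31 ± 0.069 on the log2 scale (adjusted p = 0.0288 in edgeR). Taken by history the difference was 0.40 ± 0.098 in handled mice (adjusted p = 0.228) and 0.23 ± 0.098 after chronic restraint (adjusted p = 1.00), neither of them called. Values by batch or without animal 45 are not given for this peak. The sex steroid handling (65 peaks), coregulator (623 peaks) and PPAR and LXR target lists (129 peaks) had no called peak in any of the 9 comparisons, and their acute medians were 0.020, -0.0010 and 0.00076.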

How the data were processed

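The values analysed were raw counts per peak, deposited by the authors as 1 table with a column per library. Per the submitters' processing notes, reads were handled with Trimmomatic, Bowtie2, Picard and Genrich 0.6.1 on GRCm38; whether reads, fragments or cut sites were counted, any duplicate or blacklist filter, and whether peaks were called on pooled libraries are not given in the sources used here. Wide peaks merge neighbouring elements, which limits what 1 count can be assigned to. Group, sex and batch came from the labels, and 2 columns of the table that match no sample used here were left out. No 2 libraries were identical.

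Counts were fitted with edgeR 4.0.16 (R 4.3.3; TMM, filterByExpr, quasi-likelihood F-test, Benjamini-Hochberg over all 257143 tested peaks) on group, sex and batch; the filter removed 6 peaks and none near a receptor gene. The acute comparison by sex used group by sex cells with batch. Gene totals were counts summed over peaks within 10 kb of each of 17633 protein coding genes, fitted the same way over all genes, and their CPM are scaled to the total of that summed table. Standard errors were derived from the log2 change and the F statistic, and intervals are 1.96 standard errors either way (95%). CPM use TMM-scaled totals. Genes and promoters were matched by symbol in RefSeq tables of GRCm38.p6. P-values measure the spread between animals, 1 library each. The 9 comparisons are those of time, history, their interaction, sex and time by sex. On simulated data for the acute comparison, with 257143 peaks fitted, the test recovered 22% of peaks changed by 0.25 on the log2 scale, 88% at 0.5, 86% at -0.5 and 100% at 1. The changed peaks, 50 of each size, were all drawn from peaks with a mean level above the median. The simulated spread was set by a formula, without batch or sex effects, so these rates do not cover weaker peaks. Alternatives were another test (DESeq2 1.42.0), normalization, filter, covariates, window, sexes apart and libraries or batches left out. Named peaks were, for each gene, the strongest peak at a start (or, with no listed start, a gene end) and the one with the smallest acute p, and the 3 smallest p of each comparison; other peaks were named after their values were seen. The members and lists were chosen with earlier results of these data known. Marker lists of inhibitory neurons, glia, vessels, striatum, thalamus and choroid plexus had no called acute peak at a start or gene end. One result of the thyroid hormone handling list is not reported here.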

Additional observations from a re-analysis of the deposited data

Results flagged for a closer look

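For the 21 peaks named by the smallest p of a comparison, each of the 84 groups of libraries was examined for 1 library lying far from the others of its group relative to the group's range. This held in 7 groups, where chance gives about 1 in 20. At the Esr1 peak chr10:4944159-4944367, animal 45 stood at 1.16 CPM in handled mice at 0 min, with the next library at 0.675. At the Rara peak chr11:98952549-98956303, animal 66 stood at 25.5 CPM among chronically restrained mice at 45 min, with the next at 21.4. At the wide Rxra peak chr2:27753693-27761629, animal 59 stood at 42.4 CPM among handled mice at 45 min, with the next at 38.1, and at the Rxra peak chr2:27736253-27738178 animal 39 of the same group stood at 6.52 CPM, with the next at 5.91.

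Among chronically restrained mice at 0 min, animal 33 stood at 0.454 CPM at the Vdr peak chr15:97890105-97890353, with the next library at 0.648, and so below its group. In the same group animal 24 stood above the others at 2 peaks: at 0.994 CPM at the Nr2f1 peak chr13:78207854-78208069, with the next at 0.685, and at 1.04 CPM at the Nr5a2 peak chr1:136915463-136915678, with the next at 0.715.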

How the results depend on the processing

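The count of called receptor peaks was 0 in the main fit of every comparison, and it was also 0 in 124 of 130 combinations of a comparison and an alternative. The 6 others all concerned the averaged acute comparison: 1 peak under DESeq2's Wald test, 2 with scaling to total counts, 1 without sex and batch, 2 with the share of counts in the top 1% of peaks as a covariate, 3 without handled 0 min animal 45 and 1 without batch 4. The peaks were those of Rxra (all 6 settings), Rara (3 settings) and Esr1 (without animal 45). In the main fit of the history and interaction comparisons 0% of all peaks were called, so their unchanged counts say little about the averaged acute comparison. Called gene totals, 0 in the main fit and in 108 of 112 combinations, numbered 2 under DESeq2, 2 with the top-peak share, 2 without animal 45 (Rara and Rxra each time) and 1 without batch 4 (Rxra). The adjusted p of the wide Rxra peak was 0.0053 under DESeq2, 0.00116 with the top-peak share and 0.0232 without batch 4, but 0.396, 0.676 and 0.178 without batches 1, 2 and 3, 1.00 in females alone and 0.197 in males alone, fits with fewer libraries. The cause was not tested. Of 635 refits of named peak changes 621 kept their direction and side of the threshold, 10 passed it and 4 reversed: the Esr2 peak (-0.0034) was 0.019 with the top-peak share, 0.044 without batch 1 and 0.080 without batch 3, and the Nr2f6 peak chr8:71391455-71392680 (0.074) was -0.0016 without batch 2. No paired analysis was possible because the animal numbers in the labels are not shared between groups. Sex was not compared within 1 sex or without covariates. Peaks near 1 CPM rest on few counts.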
